A study of Homo sapiens with 20 samples.

Results

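The genes described here encode the machinery that copies DNA and the E2F-controlled factors that carry cells from G1 into S phase. They are 49 genes chosen by name, each matched to 1 row of the 58870 rows of the gene count table and followed over all 12 RNA-sequencing samples. The samples were 2 human melanoma cell lines, A375 and 1205Lu, each treated with non-targeting siRNAs (si-NT, 3 samples per line) or with siRNAs against FRA1 (si-FRA1, 3 samples per line). FRA1, encoded by FOSL1, is a subunit of the AP-1 transcription factor, and the question was how the transcriptome of each line responds when it is silenced. The same lines were profiled by Cut&Run, which releases and sequences the DNA that an antibody-bound protein sits on. No siRNA is named in the labels of these samples, of which there were 3 FRA1 samples and 1 control IgG sample per line. Each line stands for 1 tumor, and the siRNA sequences and the time after transfection are not given in the sources used here. Nothing says that samples of a group came from separate cultures, so p-values measure only the spread between these samples.

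Before S phase, the origin recognition complex (ORC) with CDC6 and CDT1 loads the MCM2-7 helicase onto origins, a step called licensing. CDC45 and the GINS complex then turn the loaded helicase into an active one, polymerase alpha-primase lays down primers, and polymerases delta and epsilon extend them on the PCNA clamp. Most of these genes are transcribed in late G1 and early S phase by E2F factors, which the RB protein holds inactive until cyclin-dependent kinases phosphorylate it, and their RNA is abundant in proliferating tumor cells such as melanoma.

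FOSL1 itself was measured first, as the check of the labels. In A375 it was at 413, 424 and 408 CPM in si-NT samples and 25.7, 25.7 and 25.99 CPM in si-FRA1 samples, and in 1205Lu at 492, 484 and 478 CPM in si-NT samples and 69.4, 70.9 and 65.1 CPM in si-FRA1 samples, where CPM is the read count scaled to the normalized size of the library. The si-FRA1 and si-NT samples did not overlap in either line, and the log2 fold change of si-FRA1 over si-NT was -4.01 (SE 0.03, adjusted p = 6.03e-30, 6.19% of the si-NT level) in A375 and -2.84 (SE 0.029, adjusted p = 1.04e-22, 13.97% of the si-NT level) in 1205Lu. Total counts ranged from 20573412 to 32518903 per sample. Of 11 melanoma markers, SOX10 (43.96 CPM in A375 si-NT and 914 CPM in 1205Lu si-NT) and AXL (715 and 499 CPM) were present in both lines, whereas the pigment cell genes PMEL, MLANA, TYR and DCT were at or below 1.13 CPM in every group and S100B was at 0.992 CPM in A375. Of 11 markers of blood, endothelial, epithelial and fibroblast cells, 10 had group means of at most 1.795 CPM, with CD68, which many tumor cells also transcribe, as the exception (77.97 CPM in A375 si-NT).

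Nearly all of the 49 genes fell upon FRA1 silencing in both lines. In A375, 47 genes were lower and 0 higher at an adjusted p under 0.05 (edgeR quasi-likelihood test, Benjamini-Hochberg over all genes tested), against 25.1% lower and 25.7% higher of the 16899 genes tested. In 1205Lu, 48 were lower and 0 higher, against 19.9% lower and 20.6% higher of 17136 genes. The 49 were chosen with earlier results of these data known, so these shares describe them and do not test the set. The falls were moderate, with a median log2 fold change of -0.61 in A375 and -0.63 in 1205Lu, where the medians over all genes tested were -0.003 and -0.005. Only 3 members fell by over 1 on the log2 scale in A375 (E2F2, POLA2 and CDT1), against 2.79% of all genes, and 0 did in 1205Lu, against 2.04%. All 3 si-FRA1 samples were below all 3 si-NT samples for 44 members in A375 and for 48 in 1205Lu, an order seen in 27.6% and 23.2% of all genes tested. The exceptions in A375 were PRIM2, RPA2, RPA3, TK1 and CCNE1, and in 1205Lu CCNE1. In bulk RNA, fewer cells in S phase and less RNA of these genes per cell cannot be told apart. The members' raw counts were at least 38 in every sample, and their median coefficient of variation between samples of a group was 3.94% to 5.61%.

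**Figure D1:**
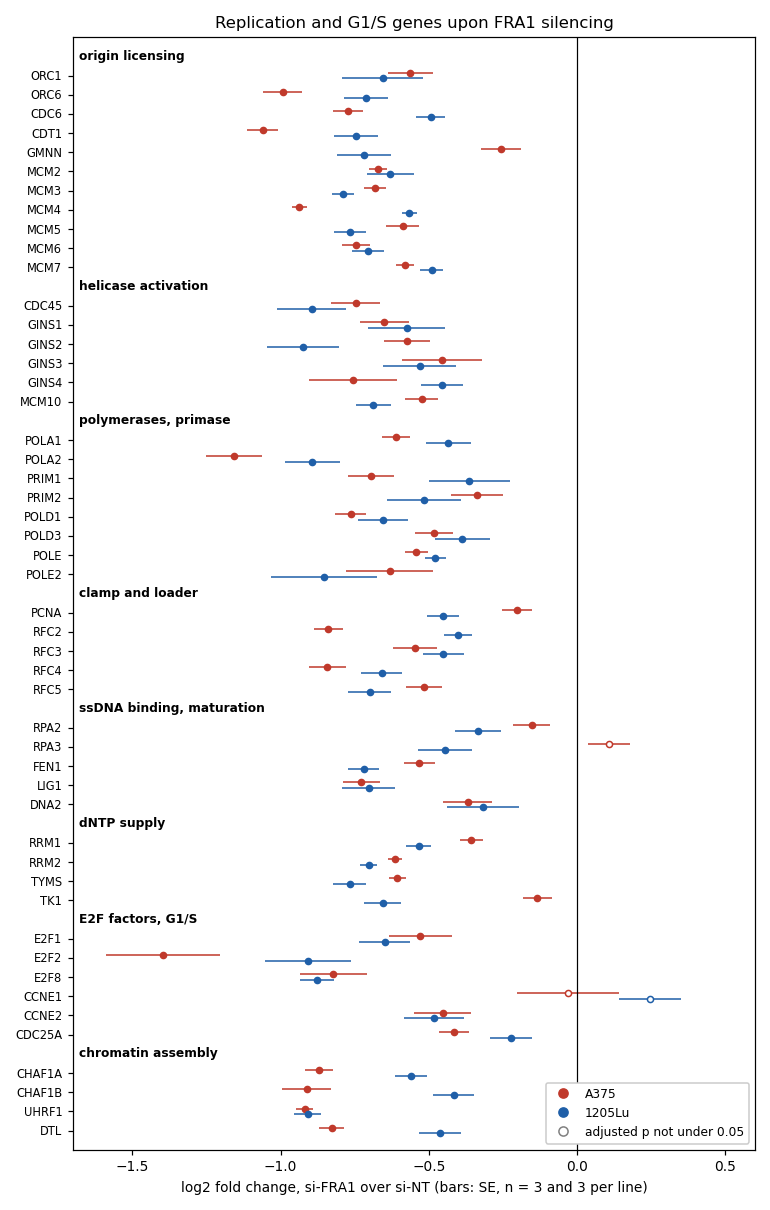
Log2 fold change (x axis, si-FRA1 over si-NT) of each of the 49 genes, grouped by role, in A375 (red) and 1205Lu (blue), with bars for the standard error of the fit on 3 and 3 samples and open points where the adjusted p was not under 0.05. Almost all points lie left of 0, and the open points are RPA3 in A375 and CCNE1 in both lines.

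The promoters were searched for short sequences. The genes were chosen as genes of replication and of the E2F program, so an excess of E2F letters is in part built into that choice. RefSeq promoter sequence (GRCh38.p14, 250 bases before to 50 after a transcription start) was held for 40 of the 49 members, and MCM4, MCM5, GINS4, POLD3, RPA2, RPA3, DNA2, E2F8 and CCNE2 had no entry. The E2F letters TTTCGCGC, TTTGGCGC, TTTCCCGC or TTTGCCGC, searched on both strands with overlapping matches counted apart, occurred in 23 of the 40 (57.5%) and in 3.99% of the 27305 genes in the table. Of 31 matches, 24 began within 100 bases before to 50 after the start. The CCAAT box of factor NF-Y occurred in 24 (60.0%) and in 39.7% of all genes. The AP-1 letters TGACTCA and TGAGTCA, which are each other's reverse complement, occurred in 0 of the 40 and in 6.05% of all genes. In the lists described below, they occurred in 0 of 31 further replication genes, 0 of 17 RB-E2F genes and 0 of 20 mitosis genes. Of these genes with promoter sequence, 18, 8 and 16 held the CCAAT box and 10, 3 and 2 the E2F letters. The median log2 fold change in A375 was -0.63 for the 23 members with E2F letters and -0.61 for the 17 without, and in 1205Lu it was -0.65 and -0.66.

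The stretch from 100 bases before the start to 50 after it is shown for 4 helicase subunits, for E2F1 and E2F2 and for the members with the deepest mean fall in their role group, on the gene's own strand, 5′ to 3′, with the E2F letters in capitals. Where a gene had several starts, the one with the most E2F matches was printed. The other starts of MCM7 held 0 matches, and those of UHRF1 held 0 and 1. The MCM2 stretch lies at chr3:127598311-127598460 on the plus strand, MCM3 at chr6:52284693-52284842 on the minus strand, MCM6 at chr2:135876394-135876543 on the minus strand and MCM7 at chr7:100101348-100101497 on the minus strand.
MCM2: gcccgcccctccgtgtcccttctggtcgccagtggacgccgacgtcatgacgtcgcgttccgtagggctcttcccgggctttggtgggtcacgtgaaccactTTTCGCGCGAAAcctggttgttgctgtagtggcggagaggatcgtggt
MCM3: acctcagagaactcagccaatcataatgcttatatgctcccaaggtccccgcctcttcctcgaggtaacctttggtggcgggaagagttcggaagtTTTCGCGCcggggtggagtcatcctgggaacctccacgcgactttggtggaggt
MCM6: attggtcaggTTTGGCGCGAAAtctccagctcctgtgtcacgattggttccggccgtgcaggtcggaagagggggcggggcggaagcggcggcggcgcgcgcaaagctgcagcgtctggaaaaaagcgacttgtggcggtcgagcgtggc
MCM7: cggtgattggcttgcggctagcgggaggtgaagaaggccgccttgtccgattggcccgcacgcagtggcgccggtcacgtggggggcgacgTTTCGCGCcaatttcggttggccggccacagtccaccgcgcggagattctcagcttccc
CDT1 lies at chr16:88803689-88803838 on the plus strand, POLA2 at chr11:65261862-65262011 on the plus strand, TYMS at chr18:657553-657702 on the plus strand, UHRF1 at chr19:4909401-4909550 on the plus strand, E2F1 at chr20:33686336-33686485 on the minus strand and E2F2 at chr1:23531184-23531333 on the minus strand.
CDT1: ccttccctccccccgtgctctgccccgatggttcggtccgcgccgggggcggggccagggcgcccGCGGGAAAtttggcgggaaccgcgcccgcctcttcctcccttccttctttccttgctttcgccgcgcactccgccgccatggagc
POLA2: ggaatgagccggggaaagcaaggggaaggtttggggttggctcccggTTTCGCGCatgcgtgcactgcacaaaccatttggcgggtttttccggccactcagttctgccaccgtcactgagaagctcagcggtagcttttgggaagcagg
TYMS: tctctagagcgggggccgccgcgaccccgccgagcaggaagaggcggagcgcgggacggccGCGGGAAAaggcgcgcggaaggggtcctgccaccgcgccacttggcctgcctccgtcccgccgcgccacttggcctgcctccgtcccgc
UHRF1: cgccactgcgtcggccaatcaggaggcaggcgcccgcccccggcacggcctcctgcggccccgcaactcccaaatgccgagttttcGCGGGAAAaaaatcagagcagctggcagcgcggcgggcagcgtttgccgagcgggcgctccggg
E2F1: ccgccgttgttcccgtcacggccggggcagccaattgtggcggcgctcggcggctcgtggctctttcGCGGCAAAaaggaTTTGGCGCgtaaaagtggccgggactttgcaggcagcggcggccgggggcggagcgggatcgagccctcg
E2F2: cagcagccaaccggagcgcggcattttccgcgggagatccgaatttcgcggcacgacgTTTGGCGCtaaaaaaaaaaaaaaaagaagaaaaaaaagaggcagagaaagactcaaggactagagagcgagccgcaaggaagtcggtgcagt
The match began 35 bases before the start in CDT1, 53 in POLA2, 39 in TYMS, 14 in UHRF1 and 42 in E2F2, and E2F1 held a pair of matches at 33 and 20 bases before it. CCNE1, whose RNA did not fall, and CDC45, whose RNA did, held none of these letters in the window, which says nothing of the factor. RFC4, with the deepest mean fall of the clamp and clamp loader genes, also held none there. LIG1, with the deepest mean fall of its group, held a match 114 bases before the start, outside the stretch, and is not printed. The CCNE1 stretch is chr19:29811891-29812040 on the plus strand, that of CDC45 is chr22:19479366-19479515 on the plus strand and that of RFC4 is chr3:186806433-186806582 on the minus strand.
CCNE1: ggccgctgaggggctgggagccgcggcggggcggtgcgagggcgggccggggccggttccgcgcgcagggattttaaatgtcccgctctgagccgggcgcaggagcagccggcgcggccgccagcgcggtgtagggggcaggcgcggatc
CDC45: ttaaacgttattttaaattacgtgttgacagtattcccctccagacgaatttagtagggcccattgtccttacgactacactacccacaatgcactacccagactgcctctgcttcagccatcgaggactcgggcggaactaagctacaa
RFC4: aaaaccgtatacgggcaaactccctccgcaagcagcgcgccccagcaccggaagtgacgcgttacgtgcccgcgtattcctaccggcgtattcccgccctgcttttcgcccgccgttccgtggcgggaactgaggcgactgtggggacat

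Of the factors that license origins other than the helicase itself, CDT1, which brings MCM2-7 to ORC, fell most. Its level in A375 was 51.7, 53.1 and 52.2 CPM in si-NT samples and 24.04, 25.5 and 26.2 CPM in si-FRA1 samples, and in 1205Lu 29.1, 32.6 and 27.97 CPM in si-NT samples and 16.9, 18.7 and 18.5 CPM in si-FRA1 samples. The groups were separate in both lines, with a log2 fold change of -1.06 (SE 0.053, adjusted p = 2.75e-14) in A375 and -0.75 (SE 0.073, adjusted p = 5.46e-08) in 1205Lu. GMNN, which encodes geminin, the inhibitor of CDT1, fell least in A375 but was second only to CDT1 among these factors in 1205Lu. It stood at 27.1, 29.6 and 30.7 CPM in si-NT samples and 23.2, 26.5 and 23.9 CPM in si-FRA1 samples in A375. In 1205Lu, GMNN was at 18.4, 18.1 and 16.9 CPM in si-NT samples and 10.4, 10.4 and 12 CPM in si-FRA1 samples. In A375 the shift was small, and the lowest si-NT sample was only just above the highest si-FRA1 sample. Its log2 fold change was -0.26 (SE 0.067, adjusted p = 0.00258) and -0.72 (SE 0.09, adjusted p = 1.78e-06), so that in A375 the inhibitor kept 83.7% of its si-NT level and CDT1 47.97%, while in 1205Lu the shares were 60.8% and 59.6%. ORC1, the largest ORC subunit, changed by -0.56 (SE 0.076) in A375 and -0.66 (SE 0.14) in 1205Lu on the log2 scale, and ORC6, the smallest, by -0.99 (SE 0.065) in A375 and -0.71 (SE 0.074) in 1205Lu. CDC6, the ATPase that loads the helicase together with ORC, changed by -0.77 (SE 0.05) in A375 and -0.49 (SE 0.05) in 1205Lu. All 11 members of the licensing group, MCM2-7 included, fell in each line, with medians of -0.68 and -0.71.

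The 6 subunits of the MCM2-7 helicase, which unwinds DNA as a ring, all fell in both lines. MCM2 was at 140.4, 135 and 139.9 CPM in si-NT samples and 88.3, 87.9 and 85.6 CPM in si-FRA1 samples in A375. In 1205Lu, MCM2 was at 26.6, 25.5 and 25.9 CPM in si-NT samples and 19, 15.1 and 17.03 CPM in si-FRA1 samples. MCM3 was at 98.1, 99.4 and 96.5 CPM in si-NT samples and 62.4, 59.98 and 61.6 CPM in si-FRA1 samples in A375. In 1205Lu, MCM3 was at 108, 114 and 114 CPM in si-NT samples and 67.3, 63.8 and 65.2 CPM in si-FRA1 samples. In both lines the 3 si-FRA1 samples of each gene lay below the 3 si-NT samples. MCM4 was at 303, 296 and 289 CPM in si-NT samples and 155, 159 and 151 CPM in si-FRA1 samples in A375. In 1205Lu, MCM4 was at 252, 251 and 255 CPM in si-NT samples and 168, 178 and 172 CPM in si-FRA1 samples. MCM5 was at 77.99, 71.8 and 66.04 CPM in si-NT samples and 47.3, 51.2 and 45.5 CPM in si-FRA1 samples in A375. In 1205Lu, MCM5 was at 49.03, 49.1 and 47.5 CPM in si-NT samples and 28.1, 27.8 and 30.8 CPM in si-FRA1 samples. Again the groups were separate, although the si-NT samples of MCM5 in A375 were spread more widely, relative to their level, than those of MCM4. MCM6 was at 58.1, 56.9 and 58.7 CPM in si-NT samples and 35.7, 34.4 and 33.9 CPM in si-FRA1 samples in A375. In 1205Lu, MCM6 was at 62.4, 61.8 and 62.6 CPM in si-NT samples and 34.5, 41.8 and 39.5 CPM in si-FRA1 samples. MCM7 was at 144, 146 and 146 CPM in si-NT samples and 95.1, 99.3 and 99.1 CPM in si-FRA1 samples in A375. In 1205Lu, MCM7 was at 101, 93.2 and 96.3 CPM in si-NT samples and 70.97, 68.8 and 69.6 CPM in si-FRA1 samples. Neither gene's groups overlapped in either line.

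In A375 the log2 fold changes of the helicase subunits ran from -0.58 (SE 0.031, adjusted p = 9.43e-14) for MCM7 through -0.59 for MCM5, -0.67 for MCM2, -0.68 for MCM3 and -0.74 for MCM6 to -0.94 (SE 0.026, adjusted p = 7.28e-19) for MCM4. In 1205Lu they ran from -0.49 (SE 0.039, adjusted p = 3.23e-09) for MCM7 through -0.57 for MCM4, -0.63 for MCM2, -0.71 for MCM6 and -0.77 for MCM5 to -0.79 (SE 0.038, adjusted p = 1.64e-12) for MCM3. MCM4 was thus the subunit with the deepest fall in A375 and after MCM7 the one with the smallest in 1205Lu. Per kilobase of the MANE Select transcript, MCM4 also had the highest level of the 6 in both lines, at 72.8 CPM per kb in A375 si-NT and 62.2 in 1205Lu si-NT. The lowest subunit was MCM6 in A375 (15.4 CPM per kb) and MCM2 in 1205Lu (7.57 CPM per kb). After silencing, the levels in A375 ran from 9.23 CPM per kb for MCM6 to 39.7 for MCM7, with MCM4 at 38.2.

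**Figure D2:**
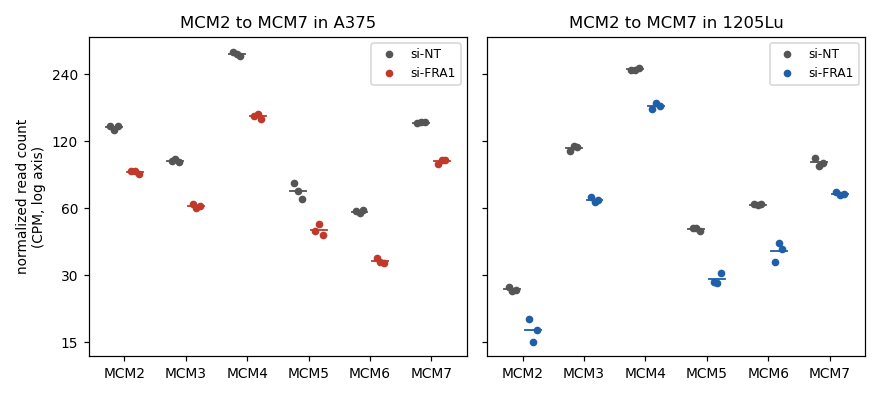
Normalized read count (CPM, log axis) of the 6 helicase subunits in each sample of A375 (left) and 1205Lu (right), with grey points for si-NT, colored points for si-FRA1 and lines at the mean of 3 samples. In each line and for each subunit the colored points lie below the grey ones, and MCM2 in 1205Lu (26.0 CPM with si-NT) lies far below MCM2 in A375 (138.6 CPM).

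The genes that activate the loaded helicase also fell, all 6 in each line, with medians of -0.61 and -0.63. CDC45, which joins MCM2-7 in the moving helicase, was at 18.5, 19.7 and 20.3 CPM in si-NT samples and 12.1, 11.3 and 11.6 CPM in si-FRA1 samples in A375. In 1205Lu, CDC45 was at 16.96, 16.3 and 16.2 CPM in si-NT samples and 11.01, 8.35 and 7.56 CPM in si-FRA1 samples. The groups were separate, and the log2 fold change was -0.75 (SE 0.082, adjusted p = 4.85e-08) and -0.90 (SE 0.12, adjusted p = 3.01e-06). GINS3, a subunit of the GINS complex, had the smallest mean change of the group. It was at 7.46, 6.49 and 6.79 CPM in si-NT samples and 5.30, 5.18 and 4.66 CPM in si-FRA1 samples in A375. In 1205Lu, GINS3 was at 10.1, 13.1 and 11.2 CPM in si-NT samples and 8.28, 7.32 and 8.46 CPM in si-FRA1 samples, again without overlap, with log2 fold changes of -0.46 (SE 0.13, adjusted p = 0.00621) and -0.53 (SE 0.12, adjusted p = 0.00158). Its partners GINS1 (-0.65 in A375 and -0.57 in 1205Lu), GINS2 (-0.57 in A375 and -0.93 in 1205Lu) and GINS4 (-0.76 in A375 and -0.46 in 1205Lu) fell as well. MCM10, which helps to activate the loaded helicase, changed by -0.52 (SE 0.055) in A375 and -0.69 (SE 0.06) in 1205Lu.

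Among the polymerase genes, POLA2, the regulatory subunit of polymerase alpha that begins each new strand with primase, fell most. In A375 it was at 19.1, 21.6 and 21.7 CPM in si-NT samples and 8.36, 10.6 and 9.27 CPM in si-FRA1 samples, and in 1205Lu at 19.6, 21.8 and 19.7 CPM in si-NT samples and 12.4, 10.5 and 10.3 CPM in si-FRA1 samples. The si-FRA1 samples averaged 9.41 CPM in A375 and 11.1 CPM in 1205Lu, far from the si-NT samples, with log2 fold changes of -1.16 (SE 0.095, adjusted p = 3.14e-10, 44.8% of the si-NT level) and -0.89 (SE 0.092, adjusted p = 1.2e-07, 53.9% of the si-NT level). PRIM2, the large primase subunit, changed least in A375, whereas in 1205Lu PRIM1 had the smallest change. It was at 19.3, 24.8 and 22.8 CPM in si-NT samples and 16.8, 19.6 and 16.96 CPM in si-FRA1 samples in A375, where the groups overlapped. In 1205Lu, PRIM2 was at 10.1, 12.5 and 13.98 CPM in si-NT samples and 8.91, 7.90 and 8.99 CPM in si-FRA1 samples, where they did not. Its log2 fold changes were -0.34 (SE 0.088, adjusted p = 0.00256) and -0.52 (SE 0.13, adjusted p = 0.00234). The catalytic subunit of polymerase alpha, POLA1, had log2 fold changes of -0.61 (SE 0.048) in A375 and -0.43 (SE 0.076) in 1205Lu. That of primase, PRIM1, had -0.70 (SE 0.078) in A375 and -0.36 (SE 0.14) in 1205Lu. That of polymerase delta, POLD1, had -0.76 (SE 0.053) in A375 and -0.65 (SE 0.084) in 1205Lu, and POLE of polymerase epsilon had -0.54 (SE 0.04) in A375 and -0.48 (SE 0.035) in 1205Lu. The accessory subunits POLD3 (-0.48 in A375 and -0.39 in 1205Lu) and POLE2 (-0.63 in A375 and -0.85 in 1205Lu) fell too. All 8 passed the test in each line, and the call of PRIM1 in 1205Lu (adjusted p = 0.0393) was lost under DESeq2 (0.061) and without any 1 sample other than 1205Lu si-NT 1 (0.0501 to 0.201).

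The sliding clamp PCNA and the 4 small subunits of its loader, replication factor C, fell in both lines. RFC4 fell most by the mean of both lines, although RFC5 fell more in 1205Lu. RFC4 was at 34.3, 33.04 and 35.9 CPM in si-NT samples and 19.6, 18.9 and 19.3 CPM in si-FRA1 samples in A375. In 1205Lu, RFC4 was at 37.2, 36.2 and 37.3 CPM in si-NT samples and 25.3, 20.7 and 25.1 CPM in si-FRA1 samples. The groups were separate, and the log2 fold change was -0.84 (SE 0.062, adjusted p = 4.37e-11) and -0.66 (SE 0.07, adjusted p = 1.65e-07). PCNA, which holds polymerases on DNA and is widely used as a proliferation marker, changed least in A375, and in 1205Lu RFC2 did. It was at 62.5, 62.7 and 59.3 CPM in si-NT samples and 50.9, 51.7 and 58.4 CPM in si-FRA1 samples in A375. In 1205Lu, PCNA was at 44.5, 42.5 and 46.5 CPM in si-NT samples and 33.7, 33.1 and 32 CPM in si-FRA1 samples. In A375 the highest si-FRA1 sample came within 1 CPM of the lowest si-NT sample, and the log2 fold change was -0.20 (SE 0.051, adjusted p = 0.00167), against -0.45 (SE 0.053, adjusted p = 7.18e-07) in 1205Lu. RFC2 was at 50.4, 50.4 and 51.7 CPM in si-NT samples and 28.7, 28.3 and 28.5 CPM in si-FRA1 samples in A375. In 1205Lu, RFC2 was at 47.3, 49.2 and 47.3 CPM in si-NT samples and 37.1, 37.05 and 35.9 CPM in si-FRA1 samples. The groups did not overlap, and the fall was deeper in A375, -0.84 (SE 0.05, adjusted p = 8e-13) against -0.40 (SE 0.049, adjusted p = 1.02e-06). RFC3 (-0.55 in A375 and -0.45 in 1205Lu) and RFC5 (-0.52 in A375 and -0.70 in 1205Lu) fell as well.

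The proteins that coat single-stranded DNA and finish Okazaki fragments included RPA3, which passed the test in 1205Lu only, and 4 genes that fell in both lines. LIG1, the ligase that seals the fragments, was at 43.1, 38.9 and 37.8 CPM in si-NT samples and 23.2, 25.8 and 23.6 CPM in si-FRA1 samples in A375. In 1205Lu, LIG1 was at 20.7, 21.1 and 19.9 CPM in si-NT samples and 10.9, 13.8 and 13.6 CPM in si-FRA1 samples. The groups were separate, with log2 fold changes of -0.73 (SE 0.062, adjusted p = 6.56e-10) and -0.70 (SE 0.089, adjusted p = 1.78e-06). RPA3, the smallest subunit of the single-strand binding complex, was at 19.6, 21.7 and 20.8 CPM in si-NT samples and 21.6, 22.4 and 23.2 CPM in si-FRA1 samples in A375, where the groups overlapped. In 1205Lu, RPA3 was at 25.3, 21.3 and 21.4 CPM in si-NT samples and 14.7, 18.7 and 17.3 CPM in si-FRA1 samples, where they did not. Its log2 fold change was 0.11 (SE 0.07, adjusted p = 0.216) in A375 and -0.45 (SE 0.09, adjusted p = 0.000448) in 1205Lu, and RPA3 shares exon positions with UMAD1 on the opposite strand. RPA2, another subunit of that complex, fell slightly in A375, -0.15 (SE 0.062, adjusted p = 0.0412), with overlapping samples, and fell in 1205Lu, -0.33 (SE 0.076, adjusted p = 0.00139). The A375 call of RPA2 was lost under DESeq2 (adjusted p = 0.065) and without A375 si-NT 1 or 2 or si-FRA1 2 or 3 (0.121 to 0.169). FEN1, the nuclease that trims the flap of each fragment, changed by -0.53 (SE 0.053) in A375 and -0.72 (SE 0.052) in 1205Lu and DNA2, a nuclease for longer flaps, by -0.37 (SE 0.083) in A375 and -0.32 (SE 0.12) in 1205Lu. The 1205Lu call of DNA2 (adjusted p = 0.0433) was lost under DESeq2 (0.0676) and without 1205Lu si-NT 2 or any si-FRA1 sample (0.069 to 0.228).

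In deoxynucleotide supply, RRM1 and RRM2 encode ribonucleotide reductase, TYMS makes thymidylate and TK1 salvages thymidine. TYMS was at 192, 185 and 186 CPM in si-NT samples and 126, 124 and 120.1 CPM in si-FRA1 samples in A375. In 1205Lu, TYMS was at 52.1, 56.7 and 51.5 CPM in si-NT samples and 33.5, 31.6 and 30.1 CPM in si-FRA1 samples. The groups were separate in both lines at levels that differed several-fold between them, and the log2 fold change was -0.61 (SE 0.029, adjusted p = 1.13e-14) and -0.77 (SE 0.056, adjusted p = 8.28e-10). TK1 was at 47.6, 51.1 and 50.6 CPM in si-NT samples and 47.7, 44.8 and 43.9 CPM in si-FRA1 samples in A375. In 1205Lu, TK1 was at 29.6, 29.6 and 29.4 CPM in si-NT samples and 18.6, 19.02 and 19.3 CPM in si-FRA1 samples. In A375 the groups overlapped, since 1 si-FRA1 sample exceeded the lowest si-NT sample, and the log2 fold change was -0.13 (SE 0.05, adjusted p = 0.028), a call that was lost without A375 si-NT 2 or 3 or si-FRA1 2 or 3 (adjusted p = 0.0825 to 0.109). In 1205Lu the samples of each group lay within 1 CPM of each other and the change was -0.66 (SE 0.062, adjusted p = 3.69e-08). RRM2, the S phase subunit of ribonucleotide reductase, changed by -0.61 (SE 0.024) in A375 and -0.70 (SE 0.028) in 1205Lu and its partner RRM1 by -0.36 (SE 0.04) in A375 and -0.53 (SE 0.042) in 1205Lu. All 4 genes passed the test in each line.

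E2F1 and E2F2 are activators of this program, E2F8 is a repressor that E2F itself induces, and cyclin E1 and E2 (CCNE1, CCNE2) with the phosphatase CDC25A turn on CDK2 at the G1/S boundary. E2F2 had the deepest fall of the 49 genes in A375. It was at 5.20, 4.87 and 4.23 CPM in si-NT samples and 1.99, 1.88 and 1.54 CPM in si-FRA1 samples in A375. In 1205Lu, E2F2 was at 9.85, 8.99 and 8.92 CPM in si-NT samples and 5.99, 4.24 and 4.78 CPM in si-FRA1 samples. The levels were low and the groups separate, with log2 fold changes of -1.40 (SE 0.19, adjusted p = 1.37e-06, 37.97% of the si-NT level) and -0.91 (SE 0.14, adjusted p = 3.47e-05, 53.3% of the si-NT level). CCNE1 was the only one of the 49 that passed the test in neither line. It was at 3.89, 5.62 and 5.59 CPM in si-NT samples and 5.94, 4.88 and 3.97 CPM in si-FRA1 samples in A375, where the groups overlapped. In 1205Lu, CCNE1 was at 10.8, 11.2 and 10.1 CPM in si-NT samples and 11.3, 13.5 and 13.7 CPM in si-FRA1 samples, where all si-FRA1 samples were slightly above all si-NT samples. Its log2 fold change was -0.03 (SE 0.17, adjusted p = 0.905) in A375 and 0.25 (SE 0.10, adjusted p = 0.0669) in 1205Lu. The 1205Lu value missed the threshold but passed it when scaled by library totals only (adjusted p = 0.0378) and without 1205Lu si-FRA1 sample 1 (adjusted p = 0.0277). The other cyclin E gene, CCNE2, fell, with log2 fold changes of -0.45 (SE 0.095) in A375 and -0.48 (SE 0.10) in 1205Lu. E2F1 changed by -0.53 (SE 0.11) in A375 and -0.65 (SE 0.087) in 1205Lu, E2F8 by -0.82 (SE 0.11) in A375 and -0.88 (SE 0.057) in 1205Lu and CDC25A by -0.41 (SE 0.051) in A375 and -0.22 (SE 0.07) in 1205Lu. The 1205Lu call of CDC25A (adjusted p = 0.0146) was lost without 1205Lu si-NT 2 (0.0534) or si-FRA1 1 (0.0732).

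UHRF1, DTL and the chromatin assembly factor subunits act on newly made chromatin. UHRF1, which reads hemimethylated DNA and recruits the maintenance methyltransferase, was at 188, 183 and 185 CPM in si-NT samples and 99.7, 97.3 and 97.8 CPM in si-FRA1 samples in A375. In 1205Lu, UHRF1 was at 93.7, 87.8 and 92.7 CPM in si-NT samples and 47.8, 52.6 and 47.4 CPM in si-FRA1 samples. It lost nearly the same share in both lines, -0.92 (SE 0.029, adjusted p = 4.08e-18, 52.9% of the si-NT level) and -0.91 (SE 0.045, adjusted p = 2.53e-12, 53.3% of the si-NT level). DTL, the substrate receptor of the ligase that degrades CDT1 in S phase, was at 78.8, 81.3 and 82.3 CPM in si-NT samples and 45.6, 45.5 and 45.9 CPM in si-FRA1 samples in A375. In 1205Lu, DTL was at 35.96, 37.96 and 38.1 CPM in si-NT samples and 26.9, 24.3 and 30.9 CPM in si-FRA1 samples. The groups did not overlap, and the log2 fold change was -0.83 (SE 0.041, adjusted p = 3.43e-14) and -0.46 (SE 0.071, adjusted p = 1.95e-05). CHAF1A and CHAF1B, which deposit histones behind the fork, changed by -0.87 (SE 0.048) in A375 and -0.56 (SE 0.055) in 1205Lu and by -0.91 (SE 0.083) in A375 and -0.42 (SE 0.068) in 1205Lu. With a median of -0.89 this was the most deeply lowered role group in A375, against -0.51 in 1205Lu.

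Of 35 further replication proteins outside the 49, 25 fell and 3 rose in A375 (median -0.33), and 26 fell and 3 rose in 1205Lu (median -0.33). Over all genes tested, 25.1% were called lower and 25.7% higher in A375, and 19.9% and 20.6% in 1205Lu. The list divided complexes. While ORC1 and ORC6 fell in both lines, ORC4 rose (0.33 (SE 0.055, adjusted p = 2.58e-05) and 0.28 (SE 0.066, adjusted p = 0.00154)), ORC5 rose in 1205Lu (0.34, SE 0.057, adjusted p = 5.77e-05) with 0.10 (SE 0.07, adjusted p = 0.232) in A375, and ORC3 passed in neither line (0.08 in A375 and 0.03 in 1205Lu). RNASEH2A, the catalytic subunit of ribonuclease H2, had the deepest fall of the list in 1205Lu (-1.14 (SE 0.13, adjusted p = 5.24e-07), with -0.50 (SE 0.078, adjusted p = 9.08e-06) in A375), whereas its partner RNASEH2B was at -0.14 in A375 and 0.02 in 1205Lu and passed in neither. RFC1, the large subunit of the clamp loader, was at 0.02 (SE 0.034, adjusted p = 0.647) in A375 and -0.13 (SE 0.039, adjusted p = 0.00842) in 1205Lu. HELLS, a chromatin remodeler, had the deepest fall in A375 (-1.50, SE 0.042, adjusted p = 6.28e-19) and also fell in 1205Lu (-0.996, SE 0.047, adjusted p = 1.11e-12). The checkpoint mediator CLSPN (-0.65 in A375 and -0.83 in 1205Lu) and the histone chaperone ASF1B (-0.98 in A375 and -0.72 in 1205Lu) fell as well. DBF4, the activator of the CDC7 kinase, rose slightly in both lines (0.15 in A375 and 0.12 in 1205Lu).

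In the RB-E2F control layer, 11 of 21 genes fell and 4 rose in A375 (median -0.15), and 9 fell and 4 rose in 1205Lu (median -0.06). The shares of all genes were 25.1% lower and 25.7% higher in A375, and 19.9% and 20.6% in 1205Lu. Rises were thus no more frequent in this list than among all genes. CDKN1A, which encodes the CDK inhibitor p21, rose most, at 184, 185 and 184 CPM in si-NT samples and 397, 394 and 390.4 CPM in si-FRA1 samples in A375. In 1205Lu, CDKN1A was at 170.0, 164 and 168 CPM in si-NT samples and 283, 298 and 279.9 CPM in si-FRA1 samples. The samples were fully separate, with log2 fold changes of 1.09 (SE 0.022, adjusted p = 1.75e-21) and 0.76 (SE 0.027, adjusted p = 1.06e-14). CDK6, a G1 kinase that phosphorylates RB, had the deepest fall in A375, -1.03 (SE 0.023, adjusted p = 5.31e-21), and also fell in 1205Lu, -0.24 (SE 0.018, adjusted p = 1.41e-09). CDKN2C, which encodes an inhibitor of CDK4 and CDK6, fell in both lines, -0.97 (SE 0.062, adjusted p = 3.76e-12) and -1.58 (SE 0.10, adjusted p = 8.73e-11). CDK2, the partner of cyclin E, fell too, with -0.86 (SE 0.052) in A375 and -0.60 (SE 0.078) in 1205Lu. The E2F family split, since E2F5 rose (0.45 in A375 and 0.71 in 1205Lu), E2F3 and E2F6 passed in neither line (-0.02 in A375 and 0.11 in 1205Lu and -0.13 in A375 and -0.02 in 1205Lu), and E2F4 fell in A375 (-0.35, SE 0.042, adjusted p = 2.02e-07) with 0.14 (SE 0.06, adjusted p = 0.0797) in 1205Lu. E2F7 rose in A375 (0.23, SE 0.03, adjusted p = 6.47e-07), with -0.08 (SE 0.051, adjusted p = 0.219) in 1205Lu.

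Genes of mitosis, which peak later in the cycle, fell in most cases but by less in A375 than the 49. There 19 of 25 fell and 1 rose with a median of -0.21, and in 1205Lu all 25 fell with a median of -0.44. Among all genes tested, 25.1% fell and 25.7% rose in A375, and 19.9% and 20.6% in 1205Lu. AURKB, a kinase of chromosome segregation, had the deepest fall in A375 (-1.01, SE 0.069, adjusted p = 1.08e-11) and UBE2C, which targets cyclin B for destruction, in 1205Lu (-0.70, SE 0.06, adjusted p = 8.01e-09). CENPF, a kinetochore protein, rose slightly in A375 (0.10, SE 0.017, adjusted p = 1.73e-05) and fell in 1205Lu (-0.64, SE 0.017, adjusted p = 1.91e-16). The difference between the lists was not tested.

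**Figure D3:**
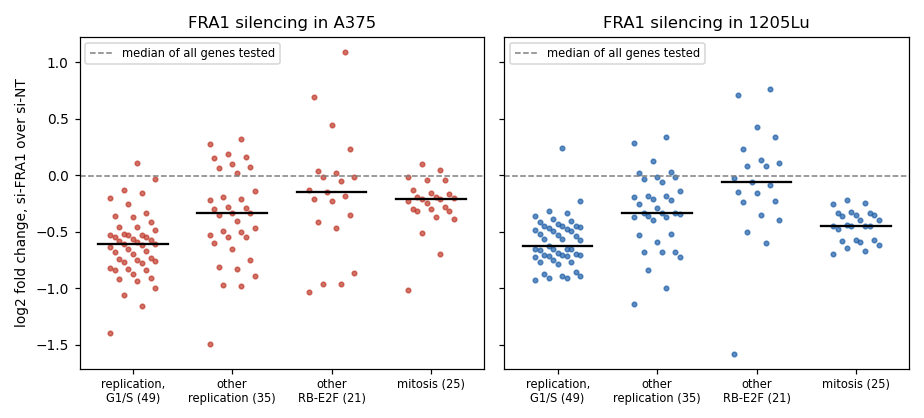
Log2 fold change (y axis, si-FRA1 over si-NT) of each tested gene in the 49 replication and G1/S genes and in 3 other lists, in A375 (left) and 1205Lu (right), with a black line at the median of each list and a dashed line at the median of all genes tested. The 49 genes have the lowest median of these lists in both lines (-0.61 and -0.63), and the mitosis genes lie lower in 1205Lu (-0.44) than in A375 (-0.21). All the lists were chosen with earlier results of these data known.

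The silencing effects of the lines were compared in 1 fit of all 12 samples. The difference between the effects passed the test for 13 of the 49 genes (26.5%), against 31.9% of the 19452 genes tested, a share no higher than that of all genes. For 8 genes the fall was deeper in A375 (ORC6, CDC6, CDT1, MCM4, RFC2, CHAF1A, CHAF1B and DTL) and for 5 it was deeper in 1205Lu (GMNN, PCNA, RPA3, RRM1 and TK1), with RPA3 not falling in A375. The 3 clearest were MCM4, with a difference (1205Lu minus A375) of 0.38 (SE 0.039, adjusted p = 1.81e-08), RFC2 with 0.45 (SE 0.066, adjusted p = 5.6e-06) and TK1 with -0.51 (SE 0.076, adjusted p = 7.83e-06). None of the 13 differences exceeded 1 on the log2 scale. The split moved with the scaling, from 3 deeper in 1205Lu and 12 deeper in A375 with library totals only to 11 and 7 with upper-quartile normalization. ORC6 lost its call with upper-quartile normalization (adjusted p = 0.0608), and PCNA (0.0573) and RRM1 (0.116) lost theirs with library totals only. Other members gained a call, such as TYMS with DESeq2 (0.022) and upper-quartile normalization (0.0133). The number deeper in 1205Lu was 3 without 1205Lu si-FRA1 3, A375 si-NT 3 or A375 si-FRA1 3. The calls of 3 genes were lost without single samples. ORC6 lost its call without 1205Lu si-NT 3, 1205Lu si-FRA1 1 or A375 si-NT 2 (adjusted p = 0.0576 to 0.0657), and PCNA without sample 3 of any of the 4 groups (0.0653 to 0.0908). RRM1 lost it without 1205Lu si-NT 1 or 2, 1205Lu si-FRA1 2 or 3, A375 si-NT 3 or A375 si-FRA1 1 or 3 (0.0523 to 0.127).

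Without silencing, most of the 49 genes were lower in 1205Lu than in A375. With si-NT, 31 were lower and 9 higher in 1205Lu, against 39.8% and 36.1% of the 19452 genes tested, with a median log2 difference of -0.34 (-0.03 over all genes). MCM2 differed most, -2.41 (SE 0.048, adjusted p = 4.85e-24), followed by TYMS, -1.81 (SE 0.039, adjusted p = 2.39e-23). PRIM1 (-1.51), POLA1 (-1.38), POLD1 (-1.17), GINS1 (-1.16), ORC1 (-1.14), DTL (-1.12), POLD3 (-1.09), CDC25A (-1.08) and UHRF1 (-1.02) were also lower by over 1. At this limit 11 members were lower and 3 higher, against 3826 and 4075 of the 19452 genes tested. The share lower by over 1 was thus close to that of all genes. Higher in 1205Lu by over 1 were the repressor E2F8, 1.98 (SE 0.074, adjusted p = 3.71e-18), the GINS subunit GINS4, 1.93 (SE 0.11, adjusted p = 1.52e-14), and CCNE1, 1.08 (SE 0.15, adjusted p = 4.34e-07). The transcription factor and cyclin group thus went the other way from the rest, with 4 of 6 higher in 1205Lu (E2F1, E2F2, E2F8 and CCNE1) and 1 lower, although 9 of 11 licensing genes were lower. With 1 line against 1 other, line and every other difference between these cultures cannot be told apart.

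**Figure D4:**
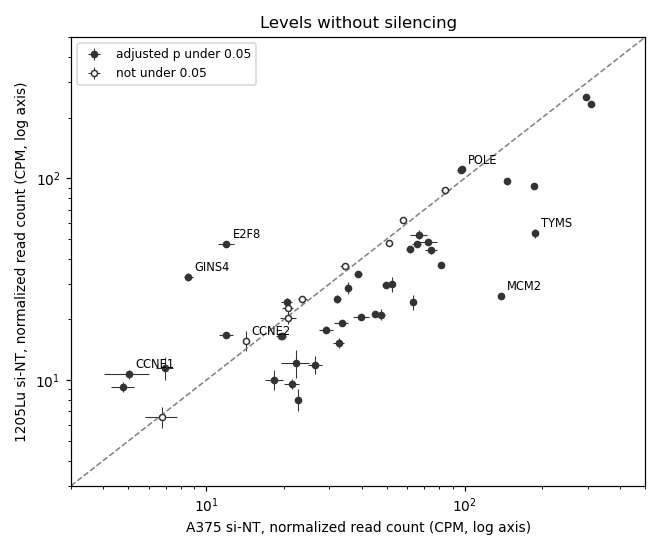
Mean normalized read count (CPM, log axes) of each of the 49 genes with si-NT in A375 (x axis) and 1205Lu (y axis), with bars for the SD of 3 samples, a dashed line of equality and open points where the adjusted p was not under 0.05. Most points lie below the line, MCM2 and TYMS farthest, and E2F8 and GINS4 lie farthest above it.

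FRA1 Cut&Run gave a second readout that the choice of members did not use. A consensus peak within 3 kb of an annotated transcription start (Gencode v44, GRCh38) was found for 33 of the 49 genes (67.3%), against 57.6% of the genes tested in A375. A peak was called enriched where each FRA1 sample had at least 10 reads and at least 4 times the IgG reads plus 1, without scaling and with no test, as each line has 1 IgG sample. In A375, 15 members had such a peak (30.6%), against 32.4% of all genes, and in 1205Lu 1 had, GINS3, against 4.54%. At this limit the share of the members in A375 was close to that of all genes. At 2 times IgG it was 61.2% against 49.5% of all genes, and at 8 times 4.08% against 14.05%. The FRA1 samples of A375 held 3354095 to 5316527 reads in peaks and its IgG sample 383994. Scaling to the same total in peaks also takes away any enrichment that all peaks share. It left 0 members in either line, against 0.184% of all genes in A375 and 1.09% in 1205Lu. In 1205Lu the FRA1 samples held 583750 to 897407 reads and the IgG sample 314569. The 1205Lu FRA1 samples 2 and 3 agreed within counting noise (a chi-square of 1.01 for each degree of freedom, against 1.64 and 1.49 for the other pairs of that line and 1.07 to 1.25 for the pairs of A375) and may be 1 library. The numbers given here still use them as separate samples. The number for 1205Lu was 1 without sample 2 or 3 (2.04%, against 4.57% and 4.74% of all genes). It was 2 without sample 1 (4.08%, against 8.01%).

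At the DTL promoter, a peak centered 100 bases upstream of the start held 314, 455 and 387 FRA1 reads in A375 against 40 IgG reads. The PRIM2 peak, 759 bases upstream, held 117, 163 and 149 against 12. The GINS3 peak held 104, 196 and 128 against 6 in A375 and 21, 35 and 38 against 4 in 1205Lu, and lies 1714 bases upstream of the nearest annotated start, which need not be the start in use. Any annotated start of a gene was used, so an enriched peak can lie far from the promoter searched for letters. For GINS3 that promoter is chr16:58392221-58392520 and the peak is chr16:58365773-58366887. The RFC4 peak (chr3:186789868-186791824) lies at the 3′ end of its minus-strand gene (chr3:186789880-186807058). The POLE2 peak (chr14:49657257-49658036) lies within its gene (chr14:49643555-49688422). In A375 the 15 members with an enriched promoter peak had a median log2 fold change of -0.53 and the 34 without had -0.63, and this difference was not tested. Of the 16 members with no promoter peak at all, all but CCNE1 fell in both lines. Among them, the calls of RPA2 in A375 and of PRIM1 and DNA2 in 1205Lu were lost under DESeq2. Since every member but RPA3 and CCNE1 fell in both lines, falls without a peak do not set these genes apart. Whether the fall depends on a promoter peak was not tested.

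**Figure D5:**
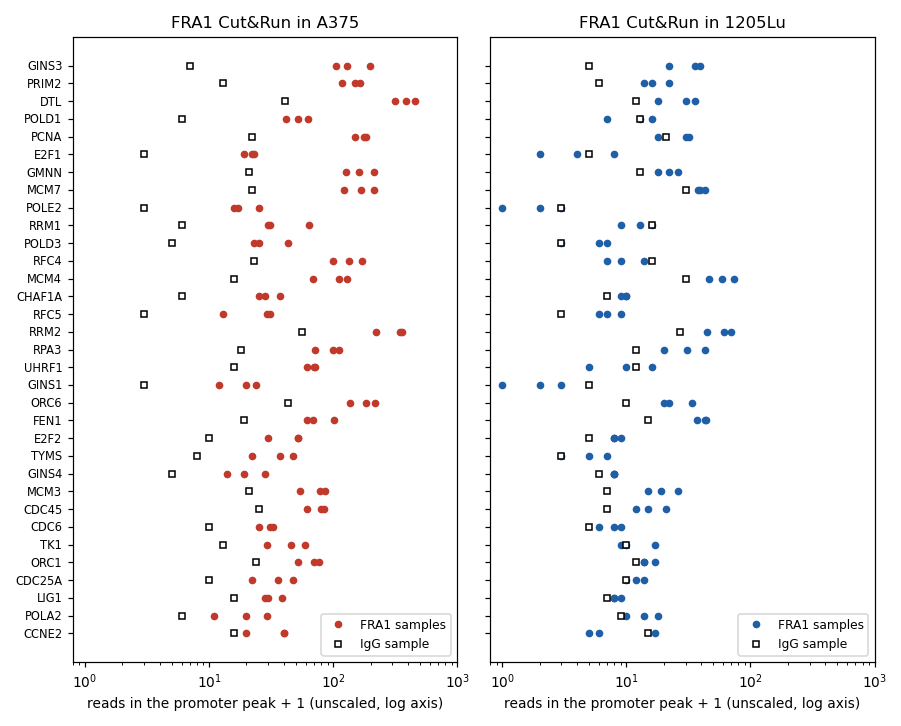
Reads in the promoter peak with the highest FRA1 to IgG ratio in A375 (x axis, unscaled reads plus 1, log axis) for the 33 genes that have one, in A375 (left) and 1205Lu (right), with colored points for the 3 FRA1 samples and open squares for the IgG sample. FRA1 points exceed IgG throughout in A375, where the FRA1 samples held several times the reads in peaks of the IgG sample, and lie closer to IgG in 1205Lu.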

How the data were processed

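RNA of A375 and 1205Lu cells was made into strand-specific libraries, and the gene table deposited by the authors holds expected counts written as whole numbers, not normalized (cutadapt 1.8.1, STAR 2.7.7a on GRCh38, RSEM 1.3.0, Gencode v30, per the submitters' processing notes and the study's methods). The second table deposited by the authors holds raw read counts in 54563 consensus peaks (Bowtie2 2.4.1, MACS2 2.1.1.20160309 at q under 0.01). Whether peaks were called per sample is not given in the sources used here. Fractions of multi-mapped reads are assigned by RSEM as estimates, and whether strand was used in counting is not given in the sources used here. 7 of the 49 genes share exon positions with a gene on the same strand and 19 with a gene on the opposite strand, so reads of such pairs may not be told apart.

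Counts were tested with edgeR 4.0.16 (R 4.3.3) by glmQLFit and glmQLFTest after filterByExpr and TMM, each line on its own, with Benjamini-Hochberg adjustment over all genes tested and calls at an adjusted p under 0.05, or also an absolute log2 fold change over 1. The difference between lines and the comparison of the si-NT groups used 1 fit of all 12 samples. CPM values use TMM-scaled totals over those samples. The study used DESeq2, here an alternative (1.42.0). On simulated counts for 16899 genes of the A375 comparison, 99.0% of 100 genes changed by 0.6 on the log2 scale and 100.0% of those changed by 1 were recovered. There were 12 false calls among unchanged genes. For the difference between the lines, 94% of genes changed by 0.6 were recovered. The changed genes all had a mean over 100 counts, with 1 spread for all genes, so genes with fewer reads were not covered. Far fewer genes were changed than the 4242 called lower and 4351 called higher in the A375 data. Recovery and false calls with so many changed genes were not covered either. All samples were grouped by title and treatment label.

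The members and gene lists were chosen with earlier results of these data known, so no set test and no p over a list is given. Values in every sample are given for MCM2 to MCM7, for the member with the largest and the smallest mean change in every other role group and for the 3 with the smallest p between lines. Outside the 49, the called genes with the largest rise and fall per list and line are named, with values in every sample for CDKN1A alone. Others outside the 49 (ORC3, RNASEH2B, RFC1, CLSPN, ASF1B, DBF4, CDK2 and the E2F family) and the peaks shown were picked after their values were seen. Replicate numbers were not taken as pairs, since same-numbered samples correlated weakly, which cannot show that no pairing existed. Other normalizations, filters, thresholds, a replicate block and leaving out each sample were tried.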

Additional observations from a re-analysis of the deposited data

Results flagged for a closer look

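The silencing effect differed between the lines by the test of the difference itself (edgeR quasi-likelihood test on all 12 samples, Benjamini-Hochberg over all genes tested) for 13 of the 49 genes, and values here are the log2 effect in 1205Lu minus that in A375. MCM4 (0.38, adjusted p = 1.81e-08), RFC2 (0.45, adjusted p = 5.6e-06), CHAF1B (0.51, adjusted p = 0.000444), DTL (0.38, adjusted p = 0.00085), CHAF1A (0.32, adjusted p = 0.00121), CDC6 (0.29, adjusted p = 0.00256), CDT1 (0.33, adjusted p = 0.00661) and ORC6 (0.29, adjusted p = 0.0232) fell more in A375. The 3 chromatin genes CHAF1A, CHAF1B and DTL thus share a direction with 4 licensing genes, whereas UHRF1 (0.02, adjusted p = 0.811) did not pass. TK1 (-0.51, adjusted p = 7.83e-06), RPA3 (-0.54, adjusted p = 0.000988), GMNN (-0.45, adjusted p = 0.00285), PCNA (-0.24, adjusted p = 0.0192) and RRM1 (-0.17, adjusted p = 0.0277) were more strongly lowered in 1205Lu. The calls of ORC6, PCNA and RRM1 were each lost without any 1 of several samples (adjusted p up to 0.0657, 0.0908 and 0.127). Geminin and its target CDT1 stand on opposite sides.

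Outside the 49, HELLS (0.51, adjusted p = 3.54e-07), CDK6 (0.81, adjusted p = 8.6e-17) and AURKB (0.41, adjusted p = 0.0131) fell more in A375. RNASEH2A (-0.63, adjusted p = 0.00121), CDKN2C (-0.60, adjusted p = 0.000272) and UBE2C (-0.44, adjusted p = 6.52e-05) fell more in 1205Lu. CENPF differed by -0.73 (adjusted p = 1.72e-17), with a small rise in A375 and a fall in 1205Lu. CDKN1A rose less in 1205Lu (-0.32, adjusted p = 9.18e-08), and ORC5 rose more there (0.25, adjusted p = 0.0342). A test for single outlying samples was not made, since the groups hold 3 samples.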

How the results depend on the processing

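Numbers of the 49 genes called lower stayed at 45 to 48 in both lines under DESeq2, other normalizations, filters, an adjusted p under 0.01 and protein-coding genes only. With a log2 fold change over 1 they were 3 in A375 and 0 in 1205Lu. For genes called higher, library totals only gave 1 in 1205Lu (CCNE1). The median log2 fold change in A375 was -0.63 with library totals only and -0.58 with no filter on low counts, and in 1205Lu -0.61 with DESeq2 and -0.60 with library totals only. Between the lines, the number falling more in 1205Lu was 8 with DESeq2, 11 with upper-quartile normalization, 3 with library totals only, 8 with at least 10 counts in every sample, 3 at an adjusted p under 0.01 and 0 with a log2 difference over 1, where the number falling more in A375 was also 0. The median difference between the lines was 0.0305 with DESeq2, 0.0024 with upper-quartile normalization and 0.0944 with library totals only. In si-NT, a log2 difference over 1 left 11 lower and 3 higher, against 3826 and 4075 of the 19452 genes tested. The median in si-NT was -0.41 with library totals only and -0.46 with no filter.

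Leaving out 1 sample gave 45 to 47 lower and 0 to 0 higher in A375, and 45 to 48 lower and 0 to 1 higher in 1205Lu (1 without si-FRA1 sample 1, CCNE1). It gave medians of -0.64 to -0.59 and -0.63 to -0.57, 3 to 6 genes falling more in 1205Lu and 7 to 9 in A375 with a median of 0.0136 to 0.0639, and in si-NT 29 to 32 lower, 9 to 10 higher and medians of -0.42 to -0.32. With a replicate block, 47 fell in A375 and 46 in 1205Lu, where PRIM1 and DNA2 lost their calls (adjusted p = 0.0637 and 0.0644), and 5 and 8 differed between lines. Same-numbered samples correlated at 0.18, 0.06 and 0.04 in A375 and at -0.09, -0.02 and -0.05 in 1205Lu, so the numbers were not taken as pairs. Only A375 samples 1 and 2 correlated best with their own number.

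Enriched promoter peaks in A375 numbered 30 at 2 times (61.2%, against 49.5% of all genes) and 2 at 8 times (4.08%, against 14.05%). After scaling they numbered 0, against 0.184% of all genes. Without 1 FRA1 sample they numbered 15 to 21, the most without sample 1 (42.9%, against 40.4% of all genes). In 1205Lu they numbered 4 at 2 times (8.16%, against 12.2% of all genes) and 0 at 8 times (against 1.14%). Scaling left 0 (against 1.09%), and 0 lay within 1 kb (against 2.89%). Without 1 sample they numbered 1 to 2, the most without sample 1 (4.08%, against 8.01% of all genes).

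Sign changes concerned values near 0 that did not pass the test as reported. Of these, MCM6 (adjusted p = 0.00428), RFC4 (0.0268) and RRM1 (0.0186) passed as higher in 1205Lu si-NT with at least 10 counts in every sample, and also with upper-quartile normalization (0.00976, 0.0452 and 0.0432), and MCM6 also with DESeq2 (0.00966) and without 1205Lu si-FRA1 1 (0.0334). CCNE1 in A375 ranged from -0.20 to 0.10 without 1 sample. For the difference between lines the ranges were -0.0886 to 0.0886 for CCNE2, -0.12 to 0.0233 for E2F8, -0.14 to 0.0449 for GINS3, -0.013 to 0.14 for LIG1, -0.0265 to 0.15 for MCM2, -0.26 to 0.0136 for ORC1 and -0.0177 to 0.0588 for UHRF1. Library totals only gave 0.0275 for CCNE2 and 0.0044 for E2F8, no filter 0.0034 for CCNE2, and upper-quartile normalization -0.0113 for LIG1 and -0.0268 for UHRF1. Between the si-NT groups, POLE2 ranged from -0.14 to 0.068 and RRM1 from -0.0112 to 0.0842 without 1 sample. No filter gave -0.0067 for MCM6, -0.0164 for RFC3, -0.0097 for RFC4 and -0.0649 for RRM1, and library totals only gave -0.0156 for RRM1. DESeq2, upper-quartile normalization and at least 10 counts in every sample gave 0.0034, 0.0065 and 0.0171 for POLA2 and 0.0026, 0.0061 and 0.0177 for POLE2. For all of these the cause was not tested. Depth limits E2F2 and POLE2 most, whose lowest counts were 38 in A375 and 62 in 1205Lu.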
